A study of Mus musculus with 9 samples.

Results

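The transcription factor p53, encoded by Trp53, and 9 genes that it is known to switch on were followed in lung fibroblasts of aged mice. The 9 targets were Mdm2, Ccng1, Phlda3, Zmat3, Eda2r, Sesn2, Aen, Trp53inp1 and Gdf15, established members of the p53 damage response. They were chosen with earlier results of these data known. These are 10 of the 43346 genes of the deposited table, and 10 of 10 passed the minimum average count of 25 that left 16877 genes for testing. Bleomycin and saline treatment were compared by RNA-Seq in Col1a1-GFP mice, a strain in which the collagen I promoter drives a green fluorescent reporter. The aged sham group (n = 4 libraries) had received 1 dose of saline into the airway, and the aged bleo group (n = 5 libraries) 1 dose of bleomycin. All animals were aged, given in the labels both as 72 weeks and as 18 months, and lungs were taken at day 30. GFP+ cells lacking CD45, CD31 and EpCAM, the surface markers of leukocytes, endothelium and epithelium, were sorted straight into lysis buffer. Fibroblasts with little collagen I promoter activity are therefore not represented. Because each library was a bulk sample, fewer cells of a type and less RNA per cell cannot be told apart.

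p53 is held at a low level in unstressed cells because Mdm2, a ubiquitin ligase, marks it for degradation. When DNA is damaged, kinases such as Atm and Chek2 modify p53, the protein accumulates, and it binds paired response elements near its target genes, Mdm2 among them, which closes a negative feedback loop. The targets halt the cell cycle, trigger apoptosis, assist repair or alter metabolism, and bleomycin, which cuts DNA strands, is a classical trigger of the pathway. Since p53 is controlled mostly through its protein, mRNA levels of Trp53 do not report its activity directly.

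Promoter sequence is shown first, because p53 response elements are what the targets are known to share. A p53 consensus element is a pair of 10-base half-sites. RefSeq windows of GRCm38.p6, from 250 bases before to 50 bases after each annotated start, were searched for 2 adjoining half-sites that kept the C and the G of both cores and had at most 3 mismatches in 20 bases. The element is palindromic, so that both strands were covered. A window was held for 8 of the 10 genes, all but Zmat3 and Trp53inp1. Such a pair was present in 3 of these 8 genes, Ccng1, Aen and Trp53, and in 441 of 27025 genes overall (1.63%). The pairs, in capitals within 5 flanking bases on each side, are given below with that of Cdkn1a, the gene of the arrest protein p21, for reference.
Ccng1: aggccAGACCTGCCCGGGCAAGCCTtggca
Aen: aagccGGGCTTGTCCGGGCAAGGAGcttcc
Trp53: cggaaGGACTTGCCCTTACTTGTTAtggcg
Cdkn1a: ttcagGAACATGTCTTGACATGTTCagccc
The Ccng1 pair had 1 mismatch, as found in 22 genes overall (0.0814%), and its printed stretch lay at chr11:40755457-40755486 on the minus strand, with the pair 195 to 176 bases before the start. The Aen stretch, with 3 mismatches, lay at chr7:78895932-78895961 on the plus strand, 121 to 102 bases before one annotated start and at bases 10 to 29 after the other. The Trp53 stretch, also with 3 mismatches, lay at chr11:69580279-69580308 on the plus strand, with the pair 75 to 56 bases before the start. The Cdkn1a pair had 1 mismatch, and its stretch was chr17:29090923-29090952 on the plus strand. The Mdm2 window held no pair but a half-site without mismatch, shown in capitals, at chr10:117710930-117710949 on the minus strand.
Mdm2: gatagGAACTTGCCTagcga
An exact half-site occurred in 4 of the 8 genes, and in 9.55% of all genes with a window. In Ccng1, Aen and Trp53 it was part of the pair printed above, so that only Mdm2 was added by this count. A match is a description of letters, not of binding, and elements outside these windows, such as those within introns, were not searched.

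Library totals ranged from 49921946 to 68260600 counts, and the 10 genes had between 303 and 9615 counts each per library. Summed levels of 8 fibroblast markers, of which 4 were differentially expressed and higher and 2 lower, were 24820 to 30550 CPM (counts scaled to library size) in aged sham and 54940 to 72360 CPM in aged bleo libraries. Those higher were Col1a1, Col1a2, Col3a1 and Pdgfrb, and those lower were Dcn and Tcf21. The collagen genes made up most of the aged bleo sum (means of 20830, 16460 and 23880 CPM), so that the sum does not measure fibroblast content. The epithelial gene Epcam did not exceed 1.2 CPM and the endothelial gene Pecam1 did not exceed 6.69 CPM. Ptprc, which encodes CD45, was between 30.6 and 183 CPM, with its highest levels in aged sham 4 and aged bleo 4. The same libraries were highest in their group for 9 macrophage genes (259.6 to 652 CPM in aged sham, 638 to 2092 CPM in aged bleo, 6 of 9 differentially expressed and higher) and for 8 neutrophil genes (221 to 1216 and 123 to 1157 CPM, none of 8 differentially expressed). Summed levels of 10 cell cycle genes were 24.7 to 83.6 CPM in aged sham and 57.2 to 402 CPM in aged bleo, highest in aged bleo 4, with 10 of 10 differentially expressed and higher. The remaining lists showed 7 pan-leukocyte genes summing to 148 to 526 CPM in aged sham and 151 to 804 CPM in aged bleo (1 higher, 0 lower), 10 epithelial genes to 25.1 to 118 and 25.6 to 74.5 CPM (1 higher, 1 lower), and 7 endothelial genes to 16.0 to 24.9 and 16.7 to 27.1 CPM (2 higher, 0 lower). Those of T, NK and B cells summed to 5.58 to 12.1 and 2.08 to 17.9 CPM (1 higher, 3 lower of 6 tested), with Gzma, at 0 in some library, the only marker not detected throughout. The part of these cells in the results below was not tested. Values without aged sham 4 and aged bleo 4 are given where they change a call. This covers the 10 genes, the repair targets and genes named by the rule stated below, but not others such as Btg2, Bax and Atf4.

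Of the 9 targets, Phlda3, Zmat3, Aen, Trp53inp1 and Mdm2 rose after bleomycin by 1.19-fold to 1.58-fold and passed the test in 20 of 20 alternative analyses, while Trp53 itself was level. Ccng1 and Eda2r also rose, less firmly, and Sesn2 and Gdf15 did not pass the test. A gene was counted as differentially expressed at a false discovery rate (FDR) under 0.10 and a fold change over 1.5, the thresholds of the study. By this rule 1 of the 10 genes, Phlda3, was higher in aged bleo, against 12.3% of all 16877 tested genes, and 0 of 10 were lower, against 11.5%. At an FDR under 0.10 without a fold threshold, 7 of 10 were higher, against 23.4% of all tested genes, and 0 of 10 lower, against 21.4%. In 6 of 10 every aged bleo library was above every aged sham library, compared with 16.1% of all tested genes, and in 0 of 10 every aged bleo library was below, compared with 16.1%. The median log2 fold change of the 9 targets was 0.28, and that of all tested genes was 0.01. Because the genes and the count by FDR alone were chosen with earlier results known, these shares carry no test.

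**Figure D1:**
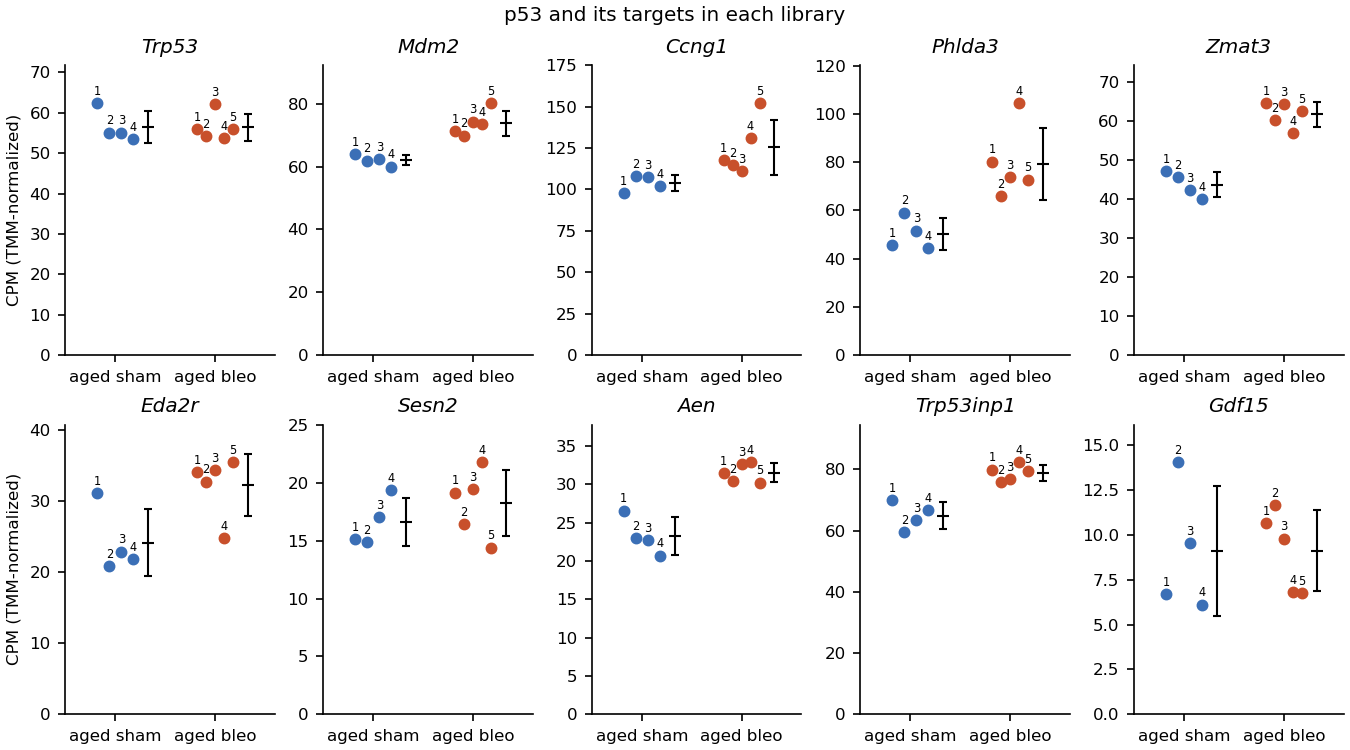
Normalized expression of Trp53 and its 9 targets, in CPM on linear axes that start at 0, 1 panel per gene. Points are libraries (4 aged sham, 5 aged bleo), and bars are the mean with its SD. The groups are fully separated for Mdm2, Ccng1, Phlda3, Zmat3, Aen and Trp53inp1, and overlap for Trp53, Eda2r, Sesn2 and Gdf15.

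Trp53 (ENSMUSG00000059552, chr11:69580359-69591873, plus strand) was present at 62.4, 55.1, 55.1 and 53.4 CPM in the aged sham libraries and at 55.9, 54.3, 62.2, 53.8 and 56.0 CPM in the aged bleo libraries. Here and throughout, CPM were normalized by the trimmed mean of M values (TMM), and libraries are given in the order of their numbers. A single library in each group, aged sham 1 and aged bleo 3, stood near 62 CPM, and all others lay in a narrow band that the groups shared. Means were 56.5 ± 4.03 CPM (SD, n = 4) and 56.4 ± 3.38 CPM (SD, n = 5), a log2 fold change of -0.00 with a 95% confidence interval of -0.16 to 0.16 (edgeR quasi-likelihood test, Benjamini-Hochberg FDR 0.987). In linear terms that interval runs from 0.896-fold to 1.11-fold. A set of 3 genes, found by a rule that ranked all tested genes by the root mean square difference of their centered log2 CPM from those of Trp53 over the 9 libraries, followed it most closely. They were Foxk1 (0.04), Lrrc41 (0.05) and Polr3d (0.05).

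Mdm2, the ligase and feedback target (ENSMUSG00000020184, chr10:117688888-117710758, minus strand), gave 64.0, 61.9, 62.4 and 60.0 CPM in aged sham and 71.3, 69.9, 74.3, 73.5 and 80.3 CPM in aged bleo. The groups did not overlap, and relative to their mean the sham libraries lay closer together (coefficient of variation 2.68%) than those of any other of the 10 genes. Mdm2 rose from 62.1 ± 1.66 to 73.9 ± 3.99 CPM, a log2 fold change of 0.25 ± 0.06 (SE; edgeR FDR 0.0112) or 1.19-fold. Within each library, Mdm2 counts divided by Trp53 counts gave 1.03, 1.12, 1.13 and 1.12 in aged sham and 1.27, 1.29, 1.19, 1.37 and 1.43 in aged bleo, a ratio that does not depend on scaling between libraries. All 5 aged bleo ratios lay above the sham range. This ratio was chosen after its values were seen and has no test.

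Mdm4, the Mdm2 relative that blocks the activation domain of p53, moved the other way. Its levels were 148, 123, 133 and 132 CPM in aged sham and 96.7, 133, 98.9, 96.4 and 114 CPM in aged bleo. It fell by 0.31 on the log2 scale (95% confidence interval -0.56 to -0.07, edgeR FDR 0.0524), short of the 1.5-fold threshold, with aged bleo 2 among the sham values. The direction was kept in 20 of 20 alternatives and the FDR stayed under 0.10 in 14. The call was lost without both libraries numbered 4 (FDR 0.118), without aged sham 1, aged sham 3, aged bleo 1 or aged bleo 3 (FDR 0.102 to 0.131), and with a replicate block (FDR 0.123).

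Phlda3, whose lipid-binding domain competes with the survival kinase Akt at the membrane, showed the widest change of the 10 genes (ENSMUSG00000041801, chr1:135766119-135769136, plus strand). Its levels were 45.6, 59.0, 51.6 and 44.2 CPM in aged sham and 80.2, 65.9, 73.6, 104.5 and 72.7 CPM in aged bleo. The lowest aged bleo library was above the highest aged sham library, and aged bleo 4 stood above the rest of its group. Phlda3 rose 1.58-fold, from 50.1 ± 6.73 to 79.4 ± 14.9 CPM (log2 fold change 0.66 ± 0.14 SE, edgeR FDR 0.0081). Without aged bleo 4 the log2 fold change was 0.54 (edgeR FDR 0.00588), and without both libraries numbered 4 it was 0.47 (FDR 0.019), so that Phlda3 passed the FDR but not the fold threshold, and none of the 10 genes was then differentially expressed. Aged bleo 4 was also the library of its group with the highest macrophage, neutrophil and cell cycle sums.

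Zmat3, a zinc finger protein that binds RNA and affects splicing and mRNA stability, had the lowest FDR of the 10 genes (ENSMUSG00000027663, chr3:32334792-32366014, minus strand). It was at 47.2, 45.6, 42.3 and 40.0 CPM in aged sham and at 64.7, 60.3, 64.4, 56.9 and 62.6 CPM in aged bleo. The spread within each group was small and the gap between them wider than either spread. Zmat3 rose 1.41-fold, from 43.7 ± 3.25 to 61.8 ± 3.22 CPM (log2 fold change 0.50 ± 0.07 SE, edgeR FDR 0.00112).

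Aen, a nuclease that cuts DNA during apoptosis (ENSMUSG00000030609, chr7:78895854-78911209, plus strand), was at 26.6, 23.0, 22.7 and 20.7 CPM in aged sham and at 31.5, 30.4, 32.7, 32.9 and 30.2 CPM in aged bleo. The aged bleo libraries were close to one another, and each was above all aged sham libraries. Aen rose 1.36-fold, from 23.2 ± 2.44 to 31.5 ± 1.24 CPM (log2 fold change 0.44 ± 0.08 SE, edgeR FDR 0.00357).

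Trp53inp1, a nuclear protein that promotes p53 phosphorylation and also takes part in autophagy (ENSMUSG00000028211, chr4:11156431-11174379, plus strand), was measured at 69.8, 59.6, 63.5 and 66.6 CPM in aged sham. In aged bleo it was at 79.9, 75.8, 76.8, 82.3 and 79.5 CPM. All 5 of these values were above the sham range. Trp53inp1 rose 1.22-fold, from 64.9 ± 4.39 to 78.9 ± 2.59 CPM (log2 fold change 0.28 ± 0.06 SE, edgeR FDR 0.00915).

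Ccng1, cyclin G1, which brings a phosphatase to Mdm2 (ENSMUSG00000020326, chr11:40748552-40755311, minus strand), was at 97.7, 108, 107 and 102 CPM in aged sham and at 118, 115, 111, 131 and 152 CPM in aged bleo. The nearest libraries of the groups almost met, and aged bleo 4 and aged bleo 5, which also had the highest cell cycle sums (402 and 349 CPM), were the highest of the group. Ccng1 rose 1.21-fold, from 103.8 ± 4.90 to 125.4 ± 16.8 CPM (log2 fold change 0.27 ± 0.10 SE, edgeR FDR 0.0592). This call was lost in 5 of 20 alternatives, among them leaving out aged sham 1 (FDR 0.137), aged sham 3 (FDR 0.107), aged sham 4 (FDR 0.124) or both libraries numbered 4 (FDR 0.209), and with scaling to library size alone the groups overlapped.

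Eda2r, a receptor of the tumor necrosis factor receptor family for ectodysplasin A2 (ENSMUSG00000034457, chrX:97333840-97377216, minus strand), had 31.1, 20.8, 22.9 and 21.8 CPM in aged sham and 34.1, 32.7, 34.3, 24.7 and 35.4 CPM in aged bleo. One library of each group departed from its fellows, aged sham 1 upward and aged bleo 4 downward, and through them the groups overlapped. Eda2r rose 1.34-fold, from 24.1 ± 4.73 to 32.3 ± 4.32 CPM (log2 fold change 0.42 ± 0.15 SE, edgeR FDR 0.050). Leaving out aged sham 2, 3 or 4 or aged bleo 5 moved the FDR to between 0.102 and 0.131.

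**Figure D2:**
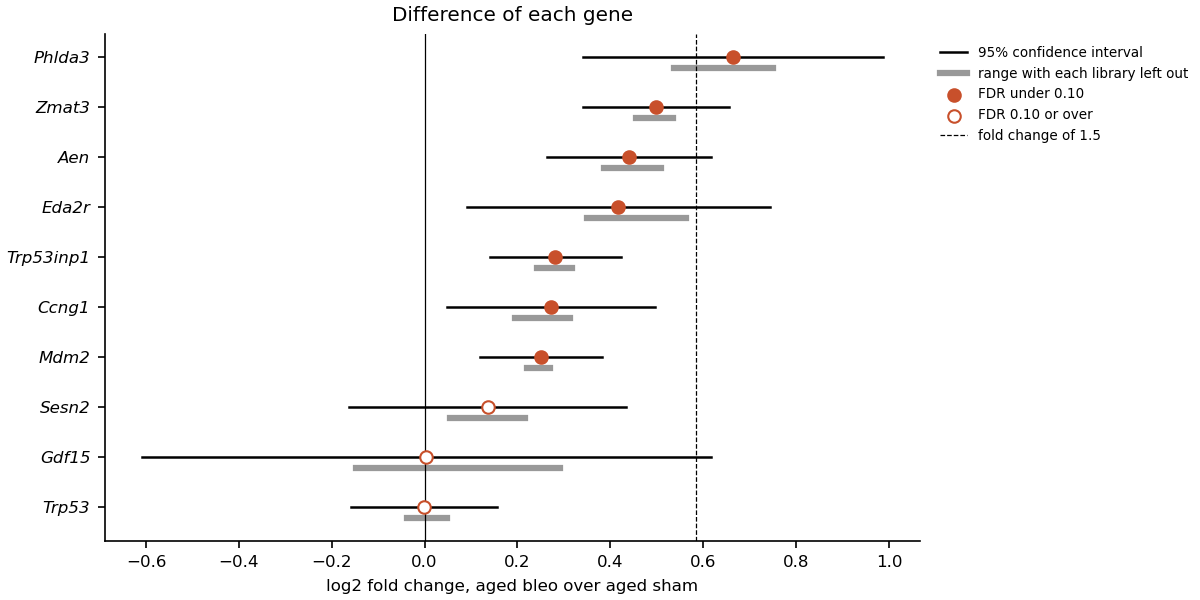
Log2 fold change of aged bleo over aged sham for Trp53 and its 9 targets, from edgeR, with the 95% confidence interval (black line) and the range over 9 fits that each left out 1 library (gray bar). Filled points passed an FDR of 0.10, and the dashed line marks a fold change of 1.5, which only Phlda3 exceeded.

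A pair of targets, Sesn2 and Gdf15, that are also switched on by Atf4, the transcription factor of the integrated stress response, did not pass the test. Sesn2, a leucine sensor that restrains the growth kinase complex mTORC1 (ENSMUSG00000028893, chr4:132492032-132510501, minus strand), was at 15.2, 14.9, 17.1 and 19.4 CPM in aged sham and at 19.2, 16.4, 19.5, 21.8 and 14.4 CPM in aged bleo. The lowest value of all 9 libraries, aged bleo 5, and the highest, aged bleo 4, were both in the bleomycin group. Its log2 fold change was 0.14 with a 95% confidence interval of -0.16 to 0.43 (edgeR FDR 0.454).

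Gdf15, a secreted stress cytokine of the TGF-β superfamily (ENSMUSG00000038508, chr8:70629393-70632456, minus strand), was the lowest of the 10 in CPM and the most variable. It was at 6.70, 14.1, 9.53 and 6.11 CPM in aged sham and at 10.7, 11.7, 9.80, 6.79 and 6.75 CPM in aged bleo. Aged sham 2 was the highest library of all, and aged sham 4 the lowest. Means were 9.10 ± 3.63 and 9.13 ± 2.25 CPM, with coefficients of variation of 39.9% and 24.6%, and the 95% confidence interval of the log2 fold change ran from -0.61 to 0.62 (edgeR FDR 0.993). A change of up to about 1.53-fold in either direction would lie within that interval.

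Across libraries the targets did not move as a single block. The number of the 9 targets above their mean log2 CPM in aged sham was 9, 8, 9, 8 and 7 in aged bleo 1 to 5, and 5, 4, 5 and 2 in aged sham 1 to 4. Their median level relative to the aged sham mean was 0.31, 0.39, 0.26, 0.35 and 0.38 on the log2 scale in the aged bleo libraries, against 0.04, -0.00, 0.01 and -0.13 in aged sham. Each aged bleo library was thus higher than each aged sham library by this median, without a test because the genes were chosen with earlier results known. Aged bleo 4 combined the highest Phlda3, Sesn2, Aen and Trp53inp1 levels with the lowest Zmat3 and Eda2r levels of its group. Aged bleo 5 was highest for Mdm2, Ccng1 and Eda2r and lowest for Sesn2, Aen and Gdf15.

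**Figure D3:**
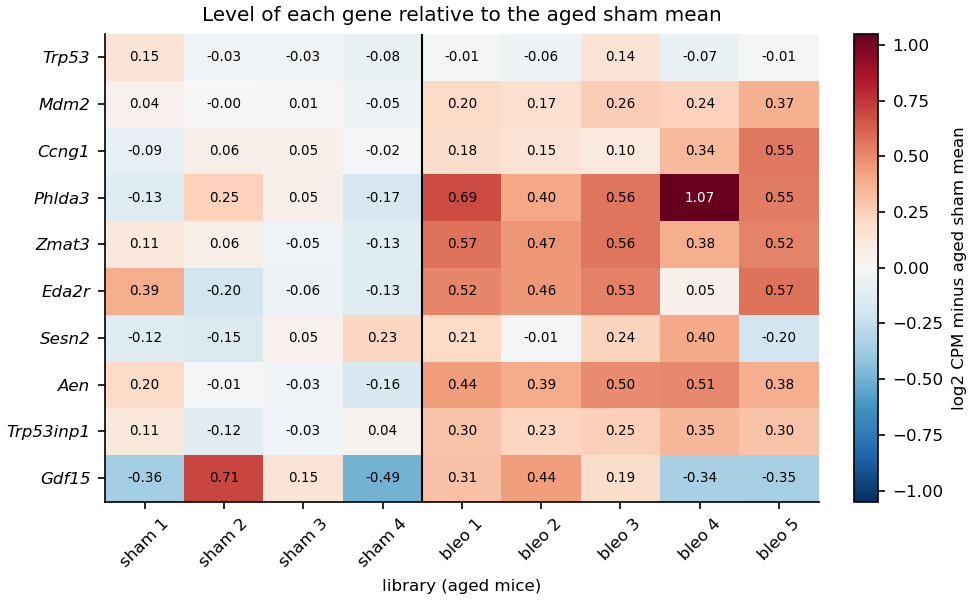
Level of Trp53 and its 9 targets in each of the 9 libraries, as log2 CPM minus the mean log2 CPM of aged sham, printed in each cell and colored from blue (lower) to red (higher). The vertical line parts aged sham from aged bleo libraries. Aged bleo libraries run from -0.35 to 1.07, with Mdm2, Ccng1, Phlda3, Zmat3, Eda2r, Aen and Trp53inp1 above 0 in all 5.

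Levels were compared between genes in the deposited FPKM, fragments scaled to transcript length and library size. In aged sham fibroblasts Phlda3 (mean 13.5, range 11.6 to 16.1 FPKM) and Ccng1 (mean 12.4, range 11.7 to 13.1 FPKM) were the most abundant of the 10, and their ranges overlapped. Trp53 (5.42 to 6.46 FPKM), Mdm2 (4.86 to 5.29 FPKM) and Trp53inp1 (3.92 to 4.52 FPKM) followed without overlap. Gdf15, Sesn2, Eda2r, Aen and Zmat3 had means between 1.61 and 2.07 FPKM, and each overlapped its neighbor in this order. In aged bleo the first 2 places were again those of Phlda3 (17.7 to 30.1 FPKM) and Ccng1 (mean 15.4 FPKM), whereas Mdm2 (5.79 to 6.86 FPKM) and Trp53 (5.64 to 6.42 FPKM) overlapped with the mean of Mdm2 the higher (6.27 against 6.00 FPKM).

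Other known targets of p53 included genes that rose and genes that fell. Of 42 further targets, 41 were tested, and by both thresholds 11 of 41 were higher, against 12.3% of all tested genes, and 2 of 41 lower, against 11.5%. At an FDR under 0.10 without a fold threshold, 15 of 41 were higher, against 23.4% of all tested genes, and 12 of 41 lower, against 21.4%. Their median log2 fold change was 0.07, beside 0.01 over all tested genes. Cdkn1a, the p21 gene and the best known arrest target, did not pass the test. Its levels were 124, 158, 132 and 127 CPM in aged sham and 145, 132, 134, 136 and 104 CPM in aged bleo, with a log2 fold change of -0.05 and a 95% confidence interval of -0.30 to 0.20 (edgeR FDR 0.731). Both the highest and the lowest of these values were single libraries, aged sham 2 and aged bleo 5, and the groups overlapped.

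Among the 8 tested arrest targets, 4 were differentially expressed and higher and 0 lower, where 12.3% and 11.5% of all tested genes were. They were Ptprv, a receptor-type tyrosine phosphatase (3.64 ± 2.34 to 23.1 ± 5.27 CPM, log2 fold change 2.66, edgeR FDR 0.00134), Gtse1, a microtubule-associated protein of dividing cells that also restrains p53 (0.798 ± 0.423 to 5.07 ± 3.31 CPM, log2 fold change 2.66, FDR 0.00932), Psrc1, a spindle protein (log2 fold change 1.66, FDR 0.000856), and the kinase gene Plk2 (31.6 ± 10.1 to 84.9 ± 17.3 CPM, log2 fold change 1.43, FDR 0.0016). Ptprv, Gtse1 and Psrc1 were lowest in aged bleo 2 and highest in aged bleo 4 within their group, as was the sum of cell cycle genes (57.2 and 402 CPM). So were Phlda3 and Trp53inp1, and, of genes given below, Bax, Pidd1, Ddit4, Ak1, Rps27l, Cdkn2a, Mthfd2, Slc7a5 and Asns. Plk2, Mdm2, Ccng1, Zmat3, Eda2r, Aen, Ddit4l, Chek2, Hipk2, Trp53inp2 and Nupr1, also higher in aged bleo, did not have both of these extremes. The part of the cell cycle genes in these differences was not tested. Without the fold threshold, 4 of 8 arrest targets were higher and 1 of 8 lower, against 23.4% and 21.4% of all tested genes. The gene lower was Btg2 (951 ± 117 to 635 ± 100 CPM, log2 fold change -0.58, edgeR FDR 0.012), named after its values were seen.

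Apoptosis targets numbered 11, of which 2 were differentially expressed and higher and 1 lower (12.3% and 11.5% of all tested genes), with a median log2 fold change of 0.36. By FDR alone, 6 of 11 were higher and 2 of 11 lower, against 23.4% and 21.4% of all tested genes. Among those higher, Bax, named after its values were seen, rose 1.49-fold from 27.5 ± 2.0 to 41.1 ± 9.0 CPM (edgeR FDR 0.0162), short of the fold threshold. It was at 55.9 CPM in aged bleo 4 and at 31.5 to 40.7 CPM in the other aged bleo libraries. Pidd1, an adaptor that activates caspase-2, rose from 2.44 ± 0.346 to 4.74 ± 0.764 CPM (log2 fold change 0.96, edgeR FDR 0.00311). Perp, a membrane protein of desmosomes, fell from 14.7 ± 1.09 to 5.59 ± 1.81 CPM (log2 fold change -1.40, FDR 0.00187). The remaining apoptosis targets are named after their values were seen. Tnfrsf10b passed both thresholds with overlapping groups (log2 fold change 0.72, edgeR FDR 0.0184). Ei24, Siva1 and Bcl2l11 were higher and Fas lower (-0.30, FDR 0.0931) by FDR alone. Bbc3, Pmaip1 and Apaf1 did not pass (FDR 0.193, 0.891 and 0.202).

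The 6 repair targets were all lower on average, and none passed the fold threshold. Their log2 fold changes lay between -0.50 and -0.17 with a median of -0.36, and 5 of 6 fell at an FDR under 0.10, a call made for 21.4% of all tested genes. Those that fell were the translesion polymerase genes Rev3l (log2 fold change -0.50, edgeR FDR 0.00925) and Polk (-0.42, FDR 0.019), Rrm2b, a ribonucleotide reductase subunit (-0.43, FDR 0.0391), and Xpc and Ddb2, which recognize ultraviolet damage (-0.29 and -0.25, FDR 0.0527 and 0.0958). These were named after their values were seen. Without both libraries numbered 4, 3 of 6 passed, Xpc and Ddb2 no longer. Xpc also failed without aged sham 2, 3 or 4 (FDR 0.112 to 0.129), and Ddb2 without any of these or without aged bleo 3 or 5 (FDR 0.149 to 0.206).

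Of the metabolic and feedback targets, 5 of 16 were differentially expressed and higher, against 12.3% of all tested genes, and 1 of 16 lower, against 11.5%, with a median log2 fold change of 0.01. When the FDR alone was used, 5 of 16 were higher and 4 of 16 lower, against 23.4% and 21.4% of all tested genes. Ddit4l and Ddit4, which encode inhibitors of mTORC1, rose (log2 fold changes 2.44 and 2.17, edgeR FDR 0.000374 and 0.00271), as did the adenylate kinase gene Ak1 (60.1 ± 4.42 to 174.6 ± 44.9 CPM, log2 fold change 1.54, FDR 0.000436) and Rps27l, a ribosomal protein paralog that shares much sequence with Rps27 (log2 fold change 0.89, FDR 0.021). Sulf2, an extracellular heparan sulfatase, fell from 330 ± 11.7 to 152.5 ± 52.5 CPM (log2 fold change -1.11, FDR 0.00766).

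**Figure D4:**
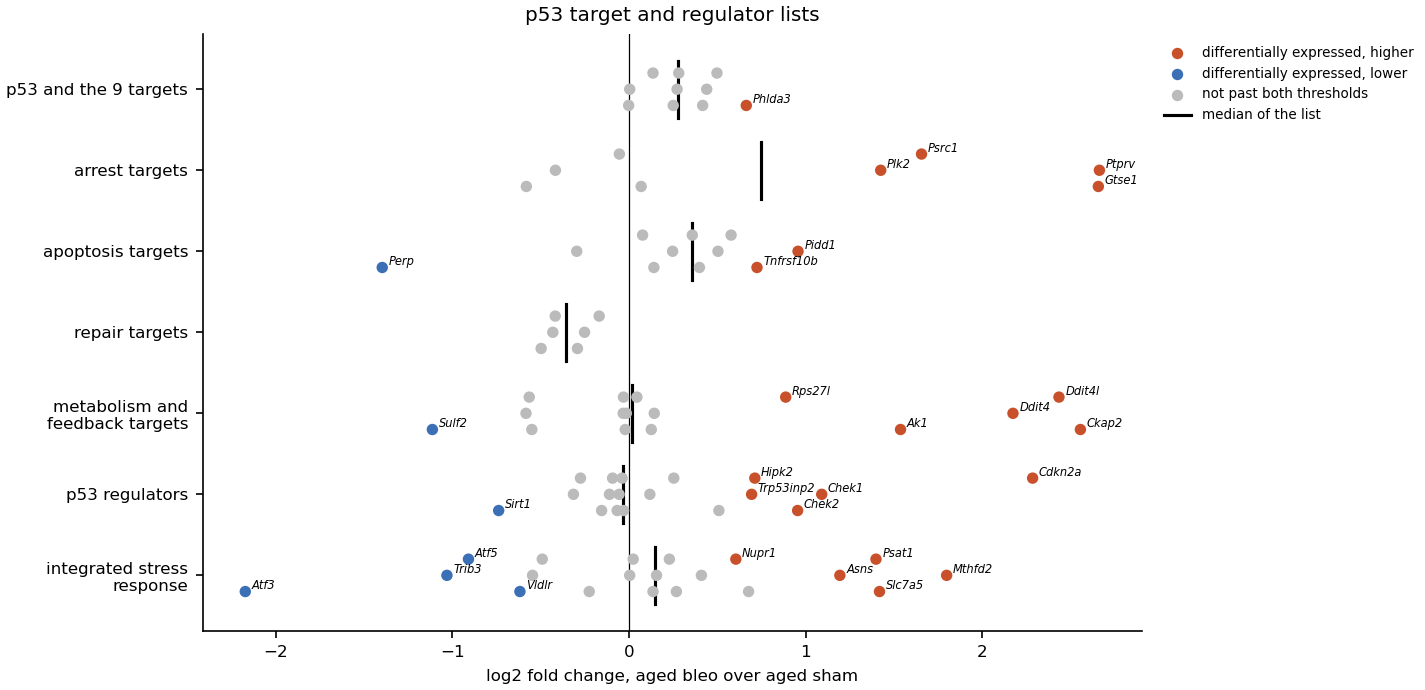
Log2 fold change of aged bleo over aged sham for each tested gene of the p53 lists and the integrated stress response list. Each point is a gene, colored when differentially expressed (red higher, blue lower) and named then, and black bars are list medians, which run from -0.36 for the repair targets to 0.75 for the arrest targets.

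Upstream of p53, 18 of 19 listed regulators were tested, with 5 differentially expressed and higher and 1 lower (12.3% and 11.5% of all tested genes), and a median log2 fold change of -0.03. Without both libraries numbered 4, 5 regulators were differentially expressed in place of 6. With no fold threshold, 6 of 18 were higher and 3 of 18 lower, against 23.4% and 21.4% of all tested genes. Cdkn2a, whose counts combine the Mdm2 inhibitor Arf and the cell cycle inhibitor p16, rose from 1.56 ± 0.799 to 7.63 ± 1.52 CPM (log2 fold change 2.29, edgeR FDR 0.00178), with 2.44, 1.08, 0.72 and 2.02 CPM in aged sham and 8.36, 5.59, 6.61, 9.39 and 8.21 CPM in aged bleo. The groups were far apart at a low absolute level. The damage kinase gene Chek2 rose from 1.90 ± 0.275 to 3.68 ± 1.06 CPM (FDR 0.0123), Hipk2, a kinase that phosphorylates p53, rose from 19.9 ± 4.80 to 32.7 ± 1.95 CPM (FDR 0.00534), and Trp53inp2, the relative of Trp53inp1 that acts in autophagy, rose from 78.0 ± 2.26 to 126.3 ± 15.0 CPM (FDR 0.000742). Sirt1, a deacetylase that acts on p53, fell from 51.0 ± 2.77 to 30.5 ± 3.80 CPM (log2 fold change -0.74, FDR 0.00063).

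The integrated stress response list, which holds Sesn2 and Gdf15, held 5 of 20 genes that were differentially expressed and higher and 4 that were lower (12.3% and 11.5% of all tested genes), with a median log2 fold change of 0.15. Those higher included enzymes and a transporter of amino acid and folate metabolism, Mthfd2 (log2 fold change 1.80, edgeR FDR 0.00555), Slc7a5 (1.42, FDR 0.00346) and Asns (1.19, FDR 0.0148), with the stress regulator Nupr1 (0.61, FDR 0.0111). Those lower were the transcription factor genes Atf3 (892 ± 175.9 to 198 ± 91.9 CPM, log2 fold change -2.17, FDR 0.00177) and Atf5 (-0.91, FDR 0.0169), the pseudokinase gene Trib3 (-1.03, FDR 0.00281) and the lipoprotein receptor gene Vldlr (-0.62, FDR 0.0163). By the FDR without a fold threshold, 7 of 20 were higher and 6 of 20 lower, against 23.4% and 21.4% of all tested genes. Atf4 itself was lower (241 ± 28 to 165 ± 15 CPM, log2 fold change -0.55, edgeR FDR 0.0043), short of the fold threshold. It was named after its values were seen. Nupr1 and Vldlr lay near the 1.5-fold threshold, and fell short of it without both libraries numbered 4 (0.53 and -0.53). Nupr1 also fell short without aged sham 1, aged sham 4 or aged bleo 1 (0.53 to 0.55), and Vldlr without aged sham 1, aged bleo 4 or aged bleo 5 (-0.58 to -0.53).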

How the data were processed

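Libraries were poly(A)-enriched (TruSeq RNA Sample Prep Kit v2) and, according to the submitters' processing notes, handled with bcl2fastq, STAR 2.5.2b and featureCounts of the Subread package on mm10/GRCm38. The authors deposited 1 table of raw counts and FPKM per gene. The strand setting of the counting is not given in the sources used here. No exon of the 10 genes overlapped an exon of another gene in GENCODE M21, whose coordinates equal the table's for 9 of 10 (Mdm2 starts at 117688875 there). Whether each library came from a single mouse is not stated in the labels, so that p-values measure the spread between these libraries. The study describes its plotted points in general as independent mice or replicates of cell culture.

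Differential expression was computed for genes averaging 25 counts or more with edgeR 4.0.16 (R 4.3.3), quasi-likelihood F test with TMM normalization, all 9 libraries, no covariates, Benjamini-Hochberg FDR over 16877 genes. The study used limma's moderated test, which was run as an alternative (3.58.1), as was DESeq2 1.42.0. The edgeR fit was tested on simulated data. No pair of libraries agreed within sampling noise (chi-square over degrees of freedom 31.0 to 468.5). The 10 genes, the lists, the marker genes, the promoter search and the count by FDR alone were chosen with earlier results of these data known. Genes of each list were named when differentially expressed without overlap between groups, at most 4 per direction. Cdkn1a and Mdm4 were named in any case. FPKM totals implied 2.27 to 2.42 times the summed counts, so that FPKM served only for levels between genes and for alternatives.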

Additional observations from a re-analysis of the deposited data

Results flagged for a closer look

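Dixon's test for a single distant library was applied to 72 groups (Trp53, its targets and the genes named by rule, in each treatment), and 5 exceeded its 95% critical value for the number of libraries. Chance alone picks out about 1 in 20 groups. Trp53 in aged bleo 3 was at 62.2 CPM, where the other aged bleo libraries were between 53.8 and 56.0 CPM. Eda2r in aged bleo 4 was at 24.7 CPM, against 32.7 to 35.4 CPM in the other aged bleo libraries. Plk2 in aged sham 1 was at 46.6 CPM, against 24.8 to 28.1 CPM in its group. Sulf2 in aged sham 2 was at 312.5 CPM, below the 334.9 to 337.1 CPM of its group. Sirt1 in aged bleo 2 was at 37.2 CPM, above the 27.5 to 29.9 CPM of its group.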

How the results depend on the processing

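Phlda3, Zmat3, Aen, Trp53inp1 and Mdm2 stayed higher at an FDR under 0.10 in 20 of 20 alternatives, Ccng1 in 15 and Eda2r in 16. The count of the 10 genes passing the FDR alone was 7, and 5 to 7 with 1 library left out, lowest without aged sham 3 or aged sham 4. The single differentially expressed gene, Phlda3, became 0 at the stricter thresholds (FDR under 0.05, fold change over 2) and without both libraries numbered 4, and the count ranged from 0 to 1 with 1 library left out. Of all tested genes, 4022 were differentially expressed, 2158 at the stricter thresholds and 1785 by limma on log2(FPKM + 1), which compresses low genes. The 6 regulators became 1 and 2 under the same settings. Trp53, Gdf15 and Cdkn1a, which never passed the test, changed sign around 0. The log2 fold change of Trp53 (-0.00) was 0.0025 with at least 10 counts required in every library, 0.0059 with library size scaling, 0.0343 and 0.0297 by limma on log2(FPKM + 0.1) and log2(FPKM + 1), 0.0161 without a filter, and -0.0381 to 0.0484 with 1 library left out. Gdf15 gave -0.0056 by DESeq2, -0.0057 with relative log normalization, -0.0764 without both libraries numbered 4, and -0.1472 to 0.2919 with 1 library left out. Cdkn1a ranged from -0.0968 to 0.0258 with 1 library left out. The repair targets passing the FDR numbered 3 to 6 in place of 5 with 1 library left out, 3 of them without aged sham 2, 3 or 4, and 3 without a filter.

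With a replicate block over the libraries numbered 1 to 4, which drops aged bleo 5, 1 of the 10 genes was again differentially expressed, Trp53 gave 0.0032 and Cdkn1a gave 0.0239. Of the 10 genes, 6 passed the FDR, without Ccng1 (log2 fold change 0.19, FDR 0.181), and 2 of the repair targets did. After each gene's group mean of log2 CPM was subtracted, the deviations of same-numbered libraries correlated at 0.0922, 0.0623, -0.13 and 0.326. The numbers were therefore not taken as a pairing, and only number 4 correlated best with its own number.

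The differences in Sesn2 and Gdf15 were within the spread of those genes' own libraries. The part of leukocyte or dividing cells in any difference was not tested.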
